A study of Mus musculus with 12 samples.

Results

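The genes described here are 31 nuclear receptor and coactivator genes of mouse liver, the receptors outside the circadian clock and PPAR groups together with the 3 p160 coactivators. They were taken by symbol from the deposited table of each library, which lists 48440 genes, and no measured value entered the choice. The 31 genes cover oxysterol and bile acid receptors, thyroid hormone receptors, retinoid receptors, steroid and vitamin D receptors, hepatocyte orphan receptors, estrogen-related receptors, testicular and COUP-type orphan receptors, the NR4A family and the p160 coactivators. Of these, 29 passed the filter on low counts that left 15244 genes, and Nr4a3 and Vdr did not.

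Poly(A) RNA was sequenced from livers of male C57BL/6 mice aged 8 weeks, on a chow diet in a cycle of 12 h light and 12 h dark. Wild-type mice (WT) and transgenic mice that overexpress E4BP4 in liver (TG) were compared 2 h (ZT2) and 14 h (ZT14) after lights on, early in the light and early in the dark. Each of the 4 groups had 3 libraries, and no treatment was given. The sources used here do not give the promoter that drives the transgene, the founder line or whether each sample was a separate animal, so the p-values measure spread between samples that may be technical.

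Nuclear receptors are transcription factors, most of which change activity when a small lipophilic molecule such as a bile acid, an oxysterol, a thyroid or steroid hormone or a retinoid binds them. They bind short hexamer half-sites in DNA, many of them as partners of an RXR, and recruit corepressors or p160 coactivators to target genes. In liver they couple circulating hormones and nutrients to bile acid, cholesterol, fatty acid and glucose metabolism. E4BP4 is the product of Nfil3, a transcriptional repressor of the bZIP class whose binding site is the D-box.

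Libraries held 16035121 to 23981021 total gene reads. Nfil3 itself was higher in TG by 1.07 on the log2 scale on the mean of both times (SE 0.15, edgeR's quasi-likelihood test, adjusted p = 0.00942), and by 1.34 at ZT14 (SE 0.21, edgeR adjusted p = 0.0306), while the 0.81 at ZT2 (SE 0.21) did not pass (edgeR adjusted p = 0.359). The 8 hepatocyte markers summed to 69434 to 86586 CPM in every library, where CPM are TMM-scaled reads per 1000000 reads, and all 8 were tested. TG replicate 2 at ZT2 and TG replicate 3 at ZT14 stood apart on the second principal component (2000 most variable genes), at 21.99 and 25.88 against -7.9 to -1.63 in the other 10 libraries. Summed reads of 15 genes biased to female liver (8 of 15 tested) reached 51.9 and 71.8 CPM in those libraries. The rest of the TG libraries also lay above WT. At ZT2 they had 9.17 and 13.4 CPM, against 8.38 to 8.94 CPM in WT. At ZT14 they had 26.6 and 25.1 CPM, against 15.9 to 21.1 CPM. Of the 8 tested genes, 6 had a TG value above WT at ZT2 and 2 below, and the ZT14 split was 4 to 4. Marker sums of some other cell types did not overlap between genotypes at ZT2. There, 13 stellate and fibroblast genes (13 of 13 tested) summed to 282 to 365 CPM in WT and 380 to 471 CPM in TG. The sums of 10 lymphocyte genes (8 of 10 tested) were 4.66 to 7.86 CPM in WT and 9.25 to 10.9 CPM in TG. Genotype called 0 genes of either list. In the ZT2 comparison it called only 11 of 15244 genes (0.0722%), so these 0 calls say little. All 13 stellate and fibroblast genes had a higher TG value there. Of these, 6 had an unadjusted edgeR p under 0.05, against 7.56% of genes. Of the 8 tested lymphocyte genes, 7 were higher in TG, and 0 had such a p. Sums of endothelial, Kupffer, cholangiocyte and erythroid markers overlapped between WT and TG at ZT2. Of the cell-type sums at ZT14, only those of 7 erythroid genes (5 of 7 tested) did not overlap, at 238 to 270 CPM in WT and 291 to 415 CPM in TG. Genotype called 0 of these 5 at ZT14, against 0.0853% of genes, and 3 had an unadjusted edgeR p under 0.05, against 6.91%. In bulk liver, a difference in the number of cells of a type and a difference in RNA per cell cannot be told apart.

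The level of the 31 genes spanned more than 4 orders of magnitude per length. Hnf4a, the receptor that maintains hepatocyte identity, led with 299 ± 59.4 TPM (transcripts per 1000000, deposited values; mean ± SD over 12 libraries). It was followed by the orphan receptor Nr2f6 at 103 ± 9.34 TPM, the bile acid receptor Nr1h4 (FXR) at 86.5 ± 23.9 TPM and the oxysterol receptor Nr1h3 (LXRα) at 71.5 ± 3.90 TPM. The ranges of Nr2f6, at 87.4 to 115 TPM, and Nr1h4, at 53.5 to 121 TPM, overlapped, so these neighbours were not separated, whereas Hnf4a, at 219.6 to 429 TPM, lay above both.

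Next in mean level came the glucocorticoid receptor Nr3c1 (26 TPM), Nr1h2 (LXRβ, 20.9 TPM), Nr5a2 (LRH-1, 19.8 TPM), Rxrb (17.5 TPM), Nr2f2 (14.2 TPM), Rara (12.3 TPM) and Thrb (11.3 TPM). Every neighbour in this order overlapped the next. The coactivators had lower means, with Ncoa3 at 8.01, Ncoa2 at 6.66 and Ncoa1 at 5.75 TPM. The ranges of Thrb, at 8.98 to 13.6 TPM, and Ncoa3, at 6.64 to 10.5 TPM, overlapped too. At the bottom were Hnf4g at 0.139 TPM, Nr4a3 at 0.0566 TPM and Vdr, the vitamin D receptor, at 0.0120 TPM, with 0 to 4 reads of Vdr in each library. The plot of levels shows this order with the libraries of each group apart.

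**Figure D1:**
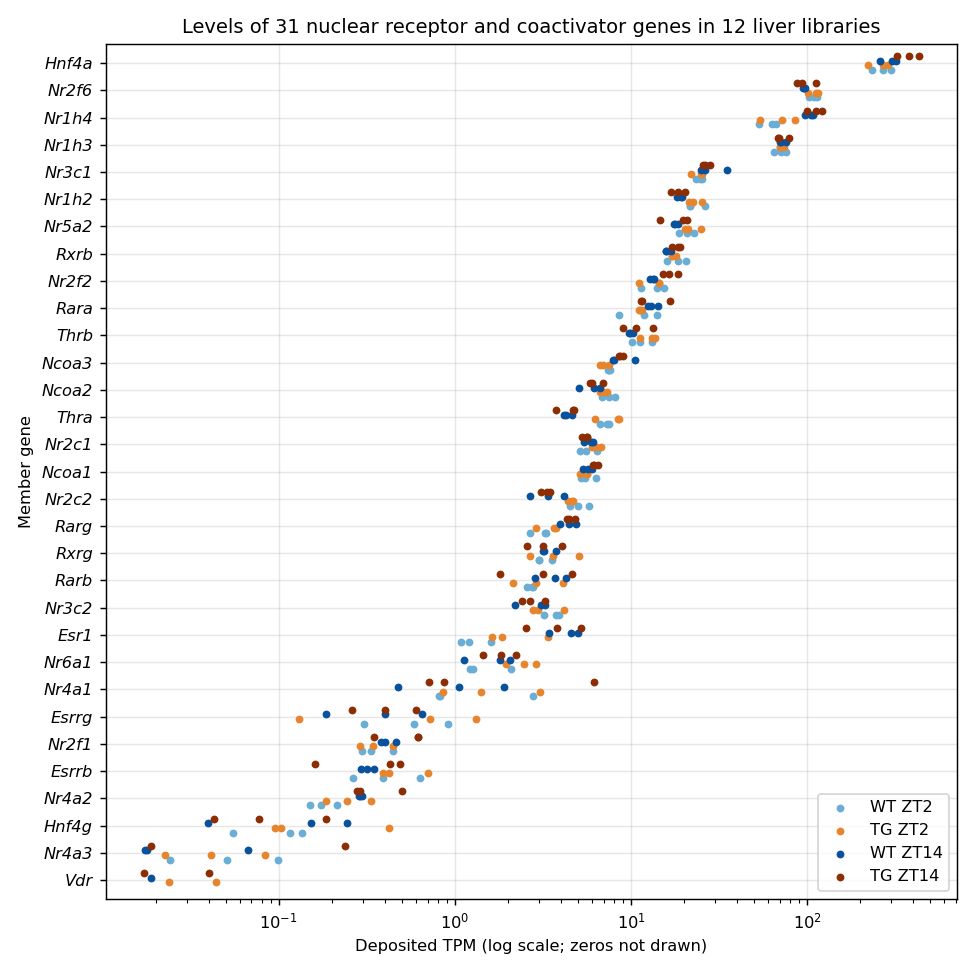
Deposited TPM (x axis, log scale) of the 31 genes (y axis), with 1 point per library and colours for the 4 groups; values of 0 are not drawn. Hnf4a lies at 219.6 to 429 TPM, above every other member, and the points of Thra and Nr1h4 split by time of day, while those of Esr1 overlap between times in TG.

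Time of day was the comparison in which these genes differed. Between ZT2 and ZT14, Nr1h4 and Esr1, the estrogen receptor α gene, rose, while Thra, the thyroid hormone receptor α gene, Nr1h2, Nr2c2 (TR4) and Ncoa2 (TIF2) fell, all called in WT. In TG, Nr1h4 and Nr2f2 (COUP-TFII) rose, and Thra, Nr1h2, Nr2c2 and Nr5a2 fell. Averaged over both genotypes, 4 members rose and 7 fell, adding Rarg among the rises and Nr3c2 and Nr2f6 among the falls.

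In WT, 6 of 29 tested members were called (20.7%), against a background of 9.17% of all genes tested. These were 2 higher and 4 lower, against 4.85% and 4.32% of genes. In TG, 6 of 29 were called (20.7%), against 12.2% of all genes, again 2 higher and 4 lower, against 6.7% and 5.52%. On the mean of both genotypes 11 of 29 were called (37.9%), against 22.5%, with 4 higher against 12% of genes and 7 lower against 10.4%. A gene was called where the p of edgeR's quasi-likelihood test, adjusted by Benjamini-Hochberg over all 15244 genes, was below 0.05, and nothing particular to these genes is drawn from the shares. The WT count fell to 3 without WT replicate 2 at ZT2 or WT replicates 1 or 3 at ZT14, and the TG count to 3 without TG replicate 1 at ZT2 or at ZT14. The median log2 fold change of the members was -0.03 in WT, -0.17 in TG and -0.08 on the mean, beside 0.01, 0.01 and 0.00 for all genes.

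The 3 ZT14 libraries lay wholly above the 3 ZT2 libraries for 5 members and wholly below for 8 in WT, against 15.3% and 14% of all genes, and for 4 and 8 in TG, against 15.8% and 14.3%. The time comparisons in WT and TG share no library, and 22 of 29 members had the same sign in both. Over the 29 members, which share the 12 libraries, Pearson's r of the WT and TG time differences was 0.59 and Spearman's rho 0.54, given as a description.

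**Figure D2:**
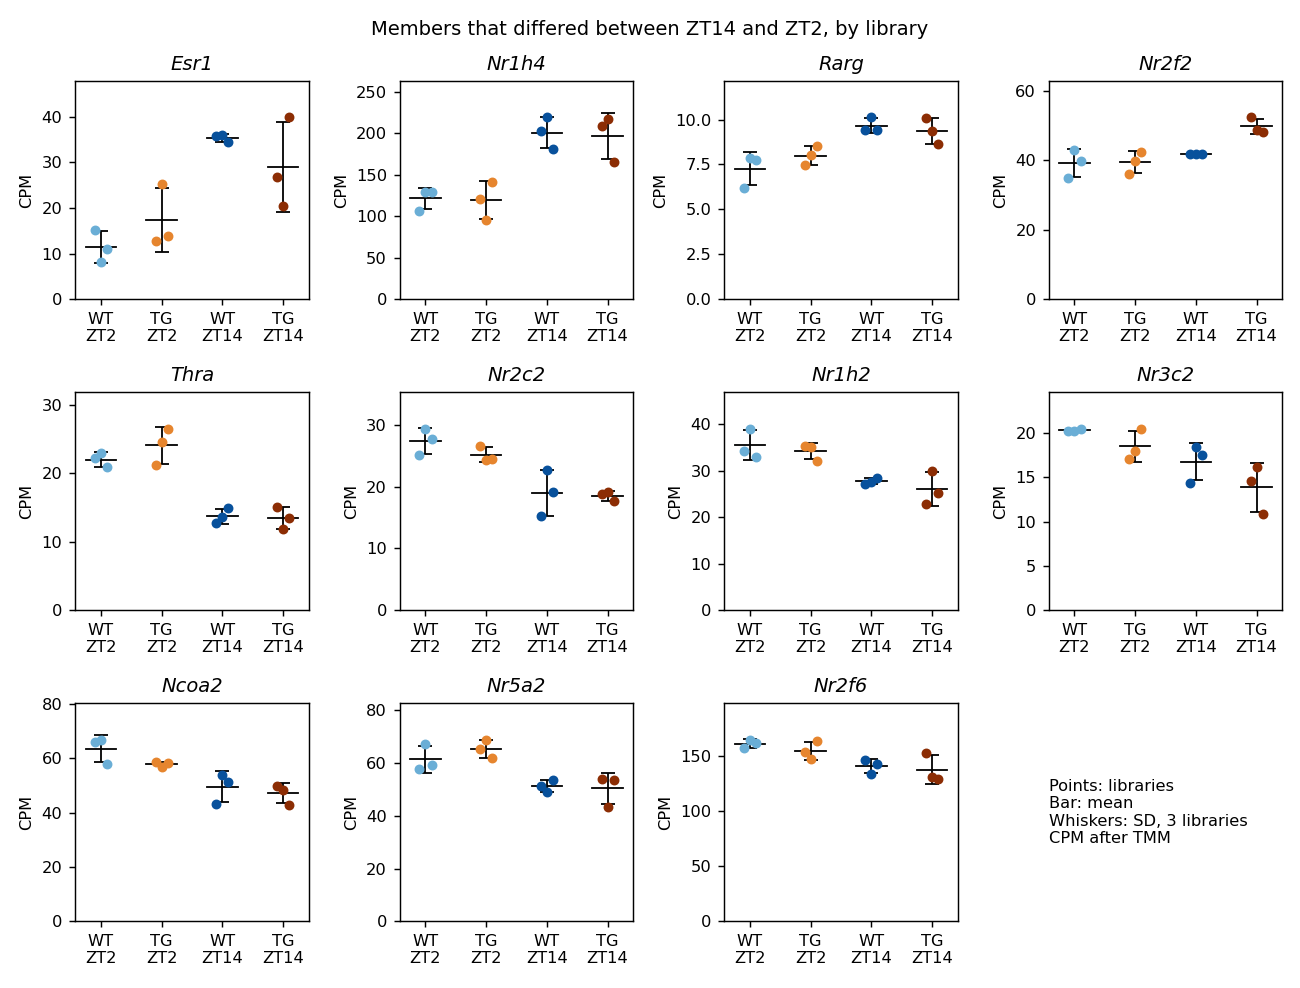
CPM after TMM scaling (y axis, from 0) in each library of the 4 groups (x axis) for the 11 members called over time on the mean of both genotypes; points are libraries, bars means and whiskers SD over 3 libraries. Esr1, Nr1h4, Rarg and Nr2f2 are higher at ZT14 and the other 7 lower, with TG libraries that overlap between times for Esr1 and Nr2f6.

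**Figure D3:**
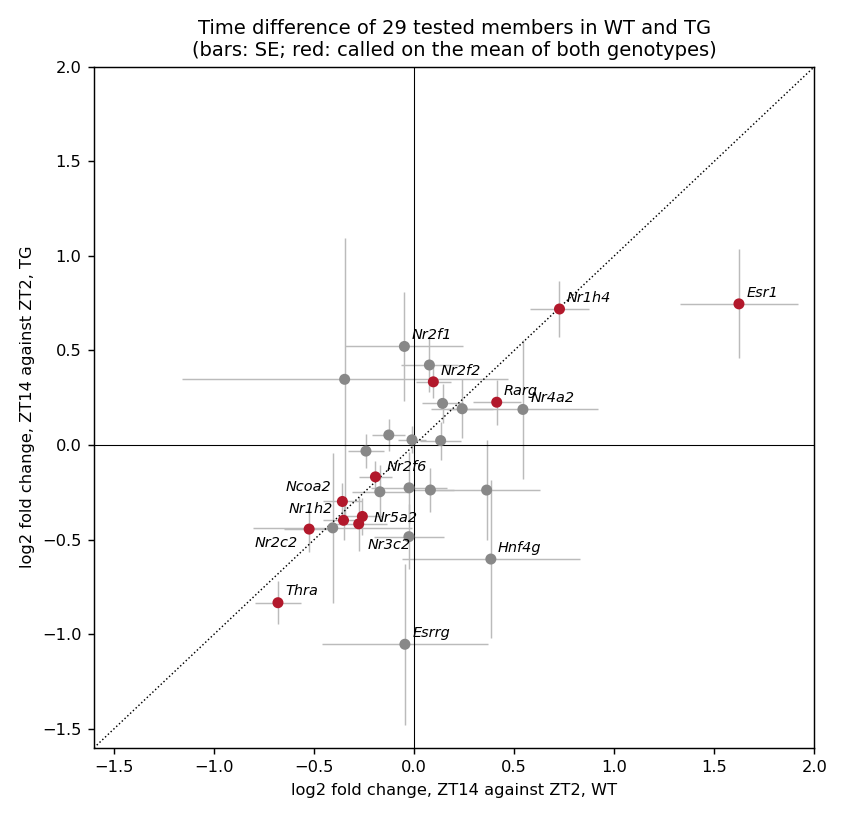
Log2 fold change of ZT14 against ZT2 in WT (x axis) and TG (y axis) for the 29 tested members, with SE bars; red marks the 11 called on the mean of both genotypes and the dotted line equal values. Thra and Nr1h4 lie on or near the line, and Esr1 lies to its right at 1.62 in WT and 0.75 in TG.

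Nr1h4, Nr1h2, Nr2c2 and Thra were called over time in each genotype. RefSeq windows of 300 bases, from 250 bases before a start site to 50 after it (GRCm38.p6), matched 26 of the 31 genes, and not Thra. They were searched on both strands for the D-box, spelled TTATGTAA or TTACGTAA, the nuclear receptor half-site AGGTCA, the E-box CACGTG and the CRE TGACGTCA, no spelling of which contains another. Either D-box spelling was in the windows of 0 of 26 genes, against 1.23% of 27025 genes, and the half-site in 7 of 26, against 18.1%. The E-box was in 2 of 26, against 8.09%, and the CRE in 1 of 26, against 2.03%. A gene counted where any of its windows held the spelling, so genes with several windows, such as Rara, had more room for a match. These shares were not adjusted for the number of windows per gene. Of 32851 single windows of all genes, 16.3% held the half-site. The windows of the 3 matched genes called in both genotypes are shown, although the calls of Nr1h2 and Nr2c2 within a genotype were lost without some libraries. Capitals mark the half-site, which in Nr1h4 reads TGACCT because it lies on the opposite strand. Its first base is 214 bases before the start site. Nr1h4 is at chr10:89506609-89506908, minus strand, inside the span of the gene. Nr1h2 is at chr7:44553916-44554215, minus strand, and Nr2c2 at chr6:92092183-92092482, plus strand, also inside the span of its gene. A match is a run of letters and not a bound site, and no match says only that these spellings are not in these windows.
Nr1h4: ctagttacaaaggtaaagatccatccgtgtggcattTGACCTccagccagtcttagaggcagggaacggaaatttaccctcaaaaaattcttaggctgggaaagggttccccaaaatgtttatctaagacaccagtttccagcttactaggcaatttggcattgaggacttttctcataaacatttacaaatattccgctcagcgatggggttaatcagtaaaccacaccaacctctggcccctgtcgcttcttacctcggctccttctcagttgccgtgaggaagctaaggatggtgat
Nr1h2: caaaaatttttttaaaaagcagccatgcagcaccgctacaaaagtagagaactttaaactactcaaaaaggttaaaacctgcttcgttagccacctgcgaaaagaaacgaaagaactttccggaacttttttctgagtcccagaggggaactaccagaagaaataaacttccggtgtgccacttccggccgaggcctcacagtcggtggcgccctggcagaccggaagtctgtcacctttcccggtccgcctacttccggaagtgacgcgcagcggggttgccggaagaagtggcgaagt
Nr2c2: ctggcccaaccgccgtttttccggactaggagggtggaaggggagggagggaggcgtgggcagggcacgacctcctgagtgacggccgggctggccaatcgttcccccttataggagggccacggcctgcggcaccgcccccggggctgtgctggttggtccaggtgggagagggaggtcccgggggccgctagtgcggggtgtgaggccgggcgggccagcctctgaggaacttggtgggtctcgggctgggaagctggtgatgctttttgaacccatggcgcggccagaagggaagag

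Among the oxysterol and bile acid receptors, Nr1h4 rose and Nr1h2 fell, and Nr1h3 did not pass. Nr1h4 (ENSMUSG00000047638, chromosome 10, 89454234 to 89533585), whose product senses bile acids and restrains their synthesis, stood at 106, 129 and 129 CPM in WT at ZT2 and 202, 219 and 181 CPM in WT at ZT14. In TG the values were 121, 95.8 and 142 CPM at ZT2 and 209, 216 and 165 CPM at ZT14. Every ZT14 library lay above every ZT2 library in both genotypes. The rise was 0.73 on the log2 scale in WT (SE 0.15, edgeR adjusted p = 0.00875) and 0.72 in TG (SE 0.15, edgeR adjusted p = 0.00799), which is 1.65-fold in each. The rise held without any single library. Intron reads made up 47.3% of Nr1h4 reads over the 12 libraries, so these CPM values are not a measure of exon reads alone.

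Nr1h2 (ENSMUSG00000060601, chromosome 7, 44549616 to 44553951), the more widely expressed of the LXR pair, stood at 34.3, 39.1 and 33.1 CPM in WT at ZT2 and 27.2, 27.7 and 28.4 CPM at ZT14. TG libraries had 35.4, 35.2 and 32.2 CPM at ZT2 and 22.8, 30.0 and 25.2 CPM at ZT14. The times did not overlap in either genotype. On the mean of both genotypes Nr1h2 fell by 0.38 on the log2 scale (SE 0.07, edgeR adjusted p = 0.0026), and this call held without any single library. Within WT the call was at the threshold (-0.35, edgeR adjusted p = 0.0486) and was lost in 10 of 12 fits that left out a library, all but those without TG replicates 1 and 2 at ZT14, with edgeR adjusted p of 0.0547 to 0.160. Within TG (-0.40, edgeR adjusted p = 0.024) it was lost without TG replicates 1 or 2 at ZT2 or 1 or 3 at ZT14, at 0.0646 to 0.0855.

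Nr1h3, the LXR that predominates in liver, did not pass, at 0.01 on the mean of both genotypes with a 95% interval of -0.10 to 0.12. Its libraries ranged from 82.9 to 94.0 CPM. The ratio of Nr1h3 to Nr1h2 in TPM was 3.10 ± 0.551 at ZT2 and 3.83 ± 0.138 at ZT14 in WT (SD, n = 3), and 3.09 ± 0.174 and 3.93 ± 0.486 in TG, given as a description.

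Of the thyroid hormone receptor genes, Thra fell and Thrb did not pass on total reads. Thra (ENSMUSG00000058756, chromosome 11, 98740638 to 98769006), the receptor form that is the lesser in liver, stood at 22.2, 22.9 and 20.9 CPM in WT at ZT2 and 12.7, 13.6 and 14.9 CPM at ZT14. TG values were 21.2, 24.5 and 26.5 CPM at ZT2 and 15.1, 11.9 and 13.5 CPM at ZT14. All 6 ZT14 libraries lay below all 6 ZT2 libraries.

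Thra fell by 0.68 on the log2 scale in WT (SE 0.11, edgeR adjusted p = 0.00245) and by 0.83 in TG (SE 0.11, edgeR adjusted p = 0.000633), and on the mean by 0.76 (SE 0.08), 1.69-fold, with the smallest adjusted p of all members (edgeR, 3.62e-05). The 3′ end of Thra overlaps the clock repressor gene Nr1d1 on the opposite strand, with 263 shared exon bases, and the sources used here do not say whether strand was used in counting. Nr1d1 itself fell by 1.40 in WT (SE 0.35, edgeR adjusted p = 0.0235) and by 1.47 in TG (SE 0.35, edgeR adjusted p = 0.0161), so reads of the pair in the shared stretch cannot be told apart. Outside exons, the intron reads of Thra fell by 0.64 on the mean of both genotypes (SE 0.12, edgeR adjusted p = 0.00436), and its uniquely mapped reads by 0.77.

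Thrb, the main hepatic thyroid hormone receptor gene, ranged from 43.4 to 58.7 CPM at ZT2 and from 36.7 to 51.1 CPM at ZT14. Its mean time difference of -0.21 had a 95% interval of -0.42 to 0.00 (edgeR adjusted p = 0.154). On exon reads alone it was called, at -0.31 (SE 0.10, edgeR adjusted p = 0.0436). In TPM, Thrb exceeded Thra by 1.61 ± 0.175 times at ZT2 and 2.29 ± 0.171 times at ZT14 in WT (SD, n = 3), and by 1.68 ± 0.435 and 2.51 ± 0.532 times in TG.

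Of the 5 retinoid receptors, Rarg rose on the mean of both genotypes and none was called within a genotype. Rarg, a low-level retinoic acid receptor gene in liver, stood at 6.21, 7.85 and 7.76 CPM in WT at ZT2 and 9.41, 10.1 and 9.44 CPM at ZT14. In TG the values were 7.44, 8.03 and 8.50 CPM at ZT2 and 10.1, 9.37 and 8.63 CPM at ZT14. The times did not overlap in either genotype, with the nearest TG libraries at 8.50 and 8.63 CPM. The mean rise was 0.32 (SE 0.08, edgeR adjusted p = 0.0169), with 0.41 in WT just outside the threshold (edgeR adjusted p = 0.0505).

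Rara, the retinoic acid receptor gene with the highest level of the 3, had 0.22 on the mean of both genotypes, with an interval of -0.02 to 0.45. Rarb, which retinoic acid itself induces, had 0.06, with an interval of -0.35 to 0.47, and ranged from 3.88 to 9.09 CPM. Rxrb and Rxrg, which encode RXR partners of other receptors, had -0.14 (interval -0.28 to 0.00) and -0.13 (interval -0.41 to 0.16). None of these 4 passed on total reads.

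Among steroid receptor genes Esr1 rose, by more than any other tested member in WT and on the mean of both genotypes. Esr1 (ENSMUSG00000019768, chromosome 10, 4611593 to 5005614) stood at 15.1, 8.04 and 11.1 CPM in WT at ZT2 and 35.7, 36.0 and 34.4 CPM at ZT14. TG libraries had 12.6, 25.3 and 13.9 CPM at ZT2 and 26.7, 20.3 and 39.8 CPM at ZT14. The WT times were far apart, while in TG the ZT2 library at 25.3 CPM exceeded the ZT14 library at 20.3 CPM.

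The rise of Esr1 was 1.62 in WT (SE 0.30, 3.08-fold, edgeR adjusted p = 0.0045) and 1.18 on the mean of both genotypes (SE 0.21, edgeR adjusted p = 0.00139), and each held without any single library. In TG the value of 0.75 (SE 0.29, 95% interval 0.12 to 1.37) did not pass (edgeR adjusted p = 0.117). Without TG replicate 2 at ZT2 it was 1.11 and was called (edgeR adjusted p = 0.0293), and without both libraries that stood apart it was 0.81 (edgeR adjusted p = 0.0528). Within each TG group, the highest Esr1 value belonged to the library that stood apart and that also had the highest sum of female-biased genes. The part of those libraries' other differences in the Esr1 result was not tested.

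Nr3c1, the glucocorticoid receptor gene, ranged from 80.2 to 113 CPM over the 12 libraries, and its mean time difference of 0.08 had an interval of -0.08 to 0.23 (edgeR adjusted p = 0.487). Nr3c2, the mineralocorticoid receptor gene, stood at 20.2, 20.2 and 20.5 CPM in WT at ZT2 and 14.4, 18.4 and 17.5 CPM at ZT14. TG values were 17, 17.9 and 20.4 CPM at ZT2 and 14.6, 16.2 and 10.8 CPM at ZT14. The times did not overlap within either genotype, and on the mean Nr3c2 fell by 0.35 (SE 0.10, edgeR adjusted p = 0.0249). The call was lost without TG replicate 3 at ZT2 or without WT replicate 1 at ZT14 (edgeR adjusted p = 0.0642 and 0.0651), and neither genotype alone was called.

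Nr5a2 fell among the hepatocyte orphan receptors. Nr5a2 (ENSMUSG00000026398, chromosome 1, 136842571 to 136960448), which promotes bile acid synthesis genes, stood at 57.5, 67.2 and 59.4 CPM in WT at ZT2 and 51.1, 49.0 and 53.7 CPM at ZT14. In TG the values were 65.4, 68.8 and 62.0 CPM at ZT2 and 54.0, 43.5 and 53.6 CPM at ZT14. Neither genotype had overlapping times. The mean fall was 0.32 (SE 0.07, edgeR adjusted p = 0.00536) and held without any single library. The TG value of -0.38 (edgeR adjusted p = 0.0238) was lost without TG replicates 1 or 2 at ZT2 or 2 at ZT14, at 0.0582 to 0.0846, and WT, at -0.26, was not called (edgeR adjusted p = 0.123).

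Hnf4a stood at 639, 692 and 538 CPM in WT at ZT2, 718, 649 and 603 CPM in WT at ZT14, 687, 576 and 512 CPM in TG at ZT2, and 873, 845 and 662 CPM in TG at ZT14. The groups overlapped in each comparison. Its mean time difference of 0.25 (interval 0.03 to 0.47) did not pass after adjustment (edgeR adjusted p = 0.1). Hnf4g, its paralogue, had no more than 1.23 CPM in any library and an interval of -0.77 to 0.55. The estrogen-related receptor genes Esrrb and Esrrg were also low, and their mean differences of -0.42 and -0.55 had intervals of -1.03 to 0.19 and -1.19 to 0.10.

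Of the 6 testicular, COUP and germ cell orphan receptor genes, Nr2c2 and Nr2f6 fell and Nr2f2 rose on total reads. Nr2c2 (ENSMUSG00000005893, chromosome 6, 92091390 to 92174294) stood at 25.1, 29.4 and 27.6 CPM in WT at ZT2 and 15.2, 22.6 and 19.1 CPM at ZT14. TG libraries had 26.6, 24.4 and 24.5 CPM at ZT2 and 18.8, 19.1 and 17.6 CPM at ZT14. No ZT14 library reached a ZT2 library of either genotype.

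Nr2c2 fell by 0.48 on the mean (SE 0.09, edgeR adjusted p = 0.00176), by 0.52 in WT (edgeR adjusted p = 0.0188) and by 0.44 in TG (edgeR adjusted p = 0.035). The mean held without any single library. The WT call was lost without WT replicates 2 or 3 at ZT2 or 1 or 3 at ZT14 (edgeR adjusted p = 0.0524 to 0.0642), and the TG call without any one of the 6 TG libraries or WT replicate 3 at ZT14 (0.0522 to 0.103). Nr2c2 shares 4590 exon bases with Mrps25, a mitochondrial ribosomal protein gene on the opposite strand, and 70.9% of its reads mapped uniquely. On uniquely mapped reads the mean was -0.37 and still called (edgeR adjusted p = 0.0051), but WT was not (edgeR adjusted p = 0.0591). Mrps25 had -0.07 on the mean (SE 0.10, edgeR adjusted p = 0.687). The relative Nr2c1 (TR2) had -0.08, with an interval of -0.26 to 0.10, and the ratio of Nr2c2 to Nr2c1 in WT was 0.901 ± 0.129 at ZT2 and 0.585 ± 0.0992 at ZT14 (SD, n = 3, in TPM).

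Nr2f2, a COUP-TF gene that is active in venous endothelium and mesenchyme as well as in other cells, stood at 34.8, 42.9 and 39.8 CPM in WT at ZT2 and 41.8, 41.6 and 41.9 CPM at ZT14. TG values were 36.0, 39.9 and 42.4 CPM at ZT2 and 52.3, 48.7 and 48.1 CPM at ZT14. The WT times overlapped and the TG times did not. The TG rise of 0.33 (SE 0.09, edgeR adjusted p = 0.0271) was lost without TG replicates 1 or 2 at either time (0.0588 to 0.112). The mean of 0.21 (edgeR adjusted p = 0.026) was lost without WT replicate 1 or TG replicates 1 or 2 at ZT2, or WT replicates 1 or 3 or TG replicate 1 at ZT14 (0.0536 to 0.0740). Nr2f2 was not called on exon reads alone, at 0.05 on the mean (edgeR adjusted p = 0.674), 0.21 in TG and -0.12 in WT, whereas intron reads gave 0.54 on the mean (edgeR adjusted p = 0.00317). It shares 643 exon bases with B130024G19Rik on the opposite strand. The 11 endothelial markers (11 of 11 tested) summed to 519 to 536 CPM in TG at ZT2 and 478 to 496 CPM at ZT14, and their part in the Nr2f2 values was not tested.

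Nr2f6 (EAR2) stood at 157, 165 and 162 CPM in WT at ZT2 and 146, 134 and 143 CPM at ZT14. In TG the values were 154, 147 and 163 CPM at ZT2 and 153, 131 and 129 CPM at ZT14. The TG times overlapped. The mean fall of 0.18 (SE 0.06, edgeR adjusted p = 0.0425) was lost in 9 of 12 fits that left out a library, all but those without WT replicate 1 or TG replicate 2 at ZT2 or TG replicate 1 at ZT14, at edgeR adjusted p of 0.0520 to 0.105. Nr2f6 shares 1622 exon bases with Ocel1 on the opposite strand, and 58.8% of its reads mapped uniquely. On those reads it fell by 0.26 (edgeR adjusted p = 0.00639). Nr2f1 (COUP-TFI), at 1.63 CPM or less, had 0.24 with an interval of -0.21 to 0.69. Nr6a1 (GCNF), a repressor known from germ cells, had -0.26 with an interval of -0.52 to 0.01.

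The NR4A genes, immediate-early orphan receptors that respond to stress and fasting signals, were low and uneven between libraries. Nr4a1 stood at 1.13, 3.48 and 1.03 CPM in WT at ZT2, 1.85, 4.56 and 1.39 CPM in TG at ZT2, 1.36, 0.640 and 2.32 CPM in WT at ZT14, and 1.12, 1.18 and 7.55 CPM in TG at ZT14. In TG the highest value at each time was in the library that stood apart. Its time difference in TG was 0.35, with an interval of -1.27 to 1.96. Nr4a2 was at 1.39 CPM or less, and Nr4a3, which was not tested, had 16 reads in TG replicate 3 at ZT14. In the same library the immediate-early gene Junb stood at 28.6 CPM, against 9.31 and 11.2 CPM in the other TG libraries at ZT14.

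Of the p160 coactivators, which link ligand-bound receptors to histone acetyltransferases, Ncoa2 fell. Ncoa2 stood at 65.9, 66.8 and 57.8 CPM in WT at ZT2 and 43.2, 53.9 and 51.4 CPM at ZT14. TG libraries had 58.5, 56.9 and 58.2 CPM at ZT2 and 49.9, 48.4 and 42.9 CPM at ZT14. The times did not overlap in either genotype. The mean fall of 0.33 (SE 0.07, edgeR adjusted p = 0.00433) held without any single library. The WT call (-0.36, edgeR adjusted p = 0.0356) was lost without WT replicates 1 or 2 or TG replicate 3 at ZT2, or WT replicates 1 or 3 at ZT14 (0.0528 to 0.150), and TG, at -0.30, was not called (edgeR adjusted p = 0.0639). Ncoa1 (SRC1), at -0.04, and Ncoa3 (ACTR), at 0.18, did not pass, with intervals of -0.16 to 0.09 and 0.03 to 0.34.

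Leaving out both libraries that stood apart left 9 of the 11 calls on the mean of both genotypes, with Nr2f2 and Nr2f6 lost (edgeR adjusted p = 0.0646 and 0.0576). In TG it left 2 calls of 6, and in WT 5 of 6. In TG, where each time then has 2 libraries, Nr1h4 stayed at 0.68 (edgeR adjusted p = 0.0108) and Thra at -0.84 (edgeR adjusted p = 0.00809).

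Genotype gave no call among these genes. At ZT2, 0 of 29 members were called, against 0.0722% of all genes (11 genes), and at ZT14 0 of 29, against 0.0853% (13 genes). On the mean of both times the count was 0 of 29, against 0.144% (22 genes). DESeq2 and limma-voom called 0 members in each of these comparisons too. At an unadjusted p under 0.05, 1 member passed at ZT2, against 7.56% of genes, 1 at ZT14, against 6.91%, and 0 on the mean, against 8.82%.

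The widest differences between TG and WT were in low genes. At ZT2 values ran from -0.14 to 0.86 on the log2 scale, and at ZT14 from -0.80 to 1.20. The 95% interval lay wholly within 1 log2 unit of 0 for 24 of 29 members at ZT2 and 25 of 29 at ZT14, and the others were low or uneven genes such as Nr4a1, Hnf4g and Esrrg, with Esr1 at ZT2. A miss of the threshold does not show that the genotypes are alike.

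**Figure D4:**
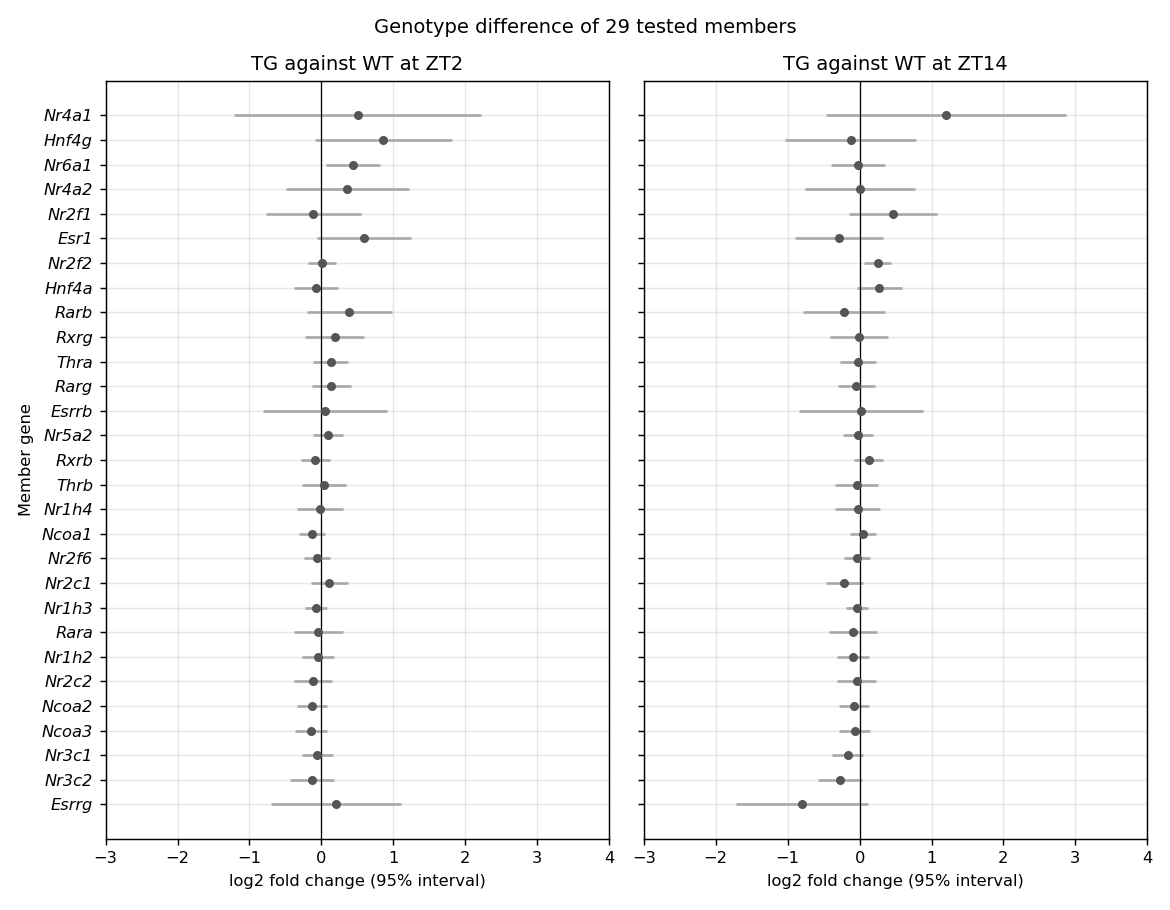
Log2 fold change of TG against WT (x axis) with its 95% interval for the 29 tested members (y axis), at ZT2 on the left and ZT14 on the right. Most intervals lie close to 0, and the interval of Nr4a1 is the widest, from -1.22 to 2.22 at ZT2.

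The member with the smallest p at ZT2 was Nr6a1, which stood at 14.3, 17.7 and 12.0 CPM in WT and 18.4, 19.7 and 21.4 CPM in TG. The groups did not overlap, and the difference of 0.44 (SE 0.17, interval 0.06 to 0.81) did not pass (edgeR adjusted p = 0.606). Nr4a2 and Hnf4g, both at 1.23 CPM or less at that time, were the other members with TG wholly above WT, and Ncoa1 had TG wholly below WT, at 24.4, 24.9 and 27.0 against 24.2, 21.6 and 23.7 CPM. Such separation was seen upward in 6.25% and downward in 5.86% of all genes.

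At ZT14 the smallest p belonged to Nr2f2, with the WT libraries at 41.6 to 41.9 CPM and the TG libraries at 48.1 to 52.3 CPM. Its difference of 0.25 (SE 0.09, interval 0.06 to 0.44) did not pass (edgeR adjusted p = 0.627), and it was the only member without overlap, against 6.12% of genes upward, with 0 members downward, against 6.32%. The stellate and fibroblast markers summed to 313 to 344 CPM in WT and 326 to 441 CPM in TG at ZT14. Their part in the Nr2f2 value was not tested. Next came Nr3c2 at -0.28 (interval -0.58 to 0.03), Hnf4a at 0.27 (interval -0.04 to 0.58) and Esrrg at -0.80 (interval -1.72 to 0.12).

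No member's time difference was shown to depend on genotype. The interaction of time and genotype, as TG minus WT, was called for 0 of 29 members, against 0.00656% of genes (1 gene, Ppard), and by DESeq2 and limma-voom for 0 members. At an unadjusted p under 0.05 it was 0 of 29, against 5.98% of genes. The smallest p was that of Esr1, at -0.88 (SE 0.41, interval -1.77 to 0.01, edgeR adjusted p = 0.842). For Nr1h4 the difference was -0.01 (interval -0.46 to 0.44) and for Thra -0.15 (interval -0.50 to 0.19).

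Among 13 tested nuclear receptors outside the 31 genes, genotype did give calls. At ZT2, 1 was called higher and 1 lower, against 0.0722% of all genes. At ZT14, 1 was called lower, against 0.0853%, and on the mean of both times 1 was called lower, against 0.144%. Esrra, the estrogen-related receptor α gene, stood at 27.3, 31.3 and 32.4 CPM in WT and 13.3, 14 and 16.2 CPM in TG at ZT2, a fall of 1.06 (SE 0.10, edgeR adjusted p = 0.000815). Ppard, a fatty acid sensor gene, was higher in TG at ZT2 by 1.18 (SE 0.11, edgeR adjusted p = 0.000815). The founder line is not given in the sources used here, and the cause of these differences was not tested. The paralogues of Esrra among the members, Esrrb and Esrrg, had 0.05 (interval -0.81 to 0.91) and 0.21 (interval -0.69 to 1.11) at ZT2.

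Exon and intron reads were then compared apart, since intron reads come mostly from unspliced RNA. Over time on the mean of both genotypes, exon reads alone gave 10 called members of 28 tested, against 25% of genes, and intron reads alone 7 of 26, against 11.3%. Nr1h4, Esr1, Thra and Ncoa2 were called on both. Their values on exon and intron reads were 0.61 (SE 0.11) and 0.79 (SE 0.14) for Nr1h4, 1.15 (SE 0.20) and 1.20 (SE 0.34) for Esr1, -0.86 (SE 0.08) and -0.64 (SE 0.12) for Thra, and -0.34 (SE 0.07) and -0.40 (SE 0.12) for Ncoa2.

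**Figure D5:**
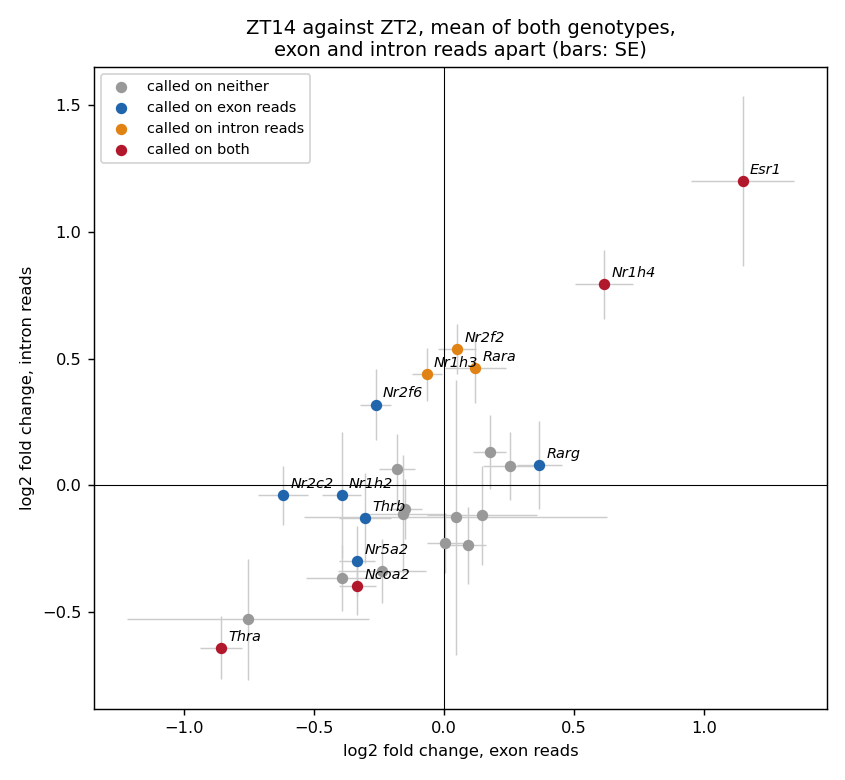
Log2 fold change of ZT14 against ZT2 on exon reads (x axis) and intron reads (y axis), mean of both genotypes, for the 25 members tested on both, with SE bars; colours give the call on exon reads, intron reads, both or neither. Esr1, Nr1h4, Thra and Ncoa2 are called on both, and Nr2f6 lies on opposite sides of 0.

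Another 6 members were called on exon reads and not on intron reads, and for 2 of these the intron values were close to 0. Nr2c2 had -0.62 on exon reads (SE 0.10, edgeR adjusted p = 0.000539) and -0.04 on intron reads (SE 0.12, edgeR adjusted p = 0.873). Nr1h2, of whose reads only 3.12% were intronic, had -0.39 (SE 0.08, edgeR adjusted p = 0.00233) and -0.04 (SE 0.25). Nr2f6 had -0.26 on exon reads (SE 0.06, edgeR adjusted p = 0.00555) and 0.32 on intron reads (SE 0.14, edgeR adjusted p = 0.166). Rarg, Nr5a2 and Thrb were the others, and the difference between the 2 read classes was not tested.

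Nr2f2, Nr1h3 and Rara were called on intron reads and not on exon reads. Nr2f2 had 0.54 on intron reads (SE 0.10, edgeR adjusted p = 0.00317) and 0.05 on exon reads (SE 0.07). Nr1h3 had 0.44 (SE 0.11, edgeR adjusted p = 0.0153) and -0.07 (SE 0.06), and its intron rise in TG was 0.74 (SE 0.15, edgeR adjusted p = 0.0116) beside 0.14 (SE 0.15) in WT. Rara had 0.46 (SE 0.14, edgeR adjusted p = 0.0412) and 0.12 (SE 0.12). Intron reads made up 30.6% of Nr2f2, 23.2% of Rara and 13.1% of Nr1h3 reads over the 12 libraries.

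Genes downstream of these receptors are given from lists chosen as textbook targets. Of 7 tested genes of bile acid synthesis and transport under Nr1h4, 1 rose and 3 fell on the mean of both genotypes. Cyp7a1, which sets the rate of bile acid synthesis and is known to be repressed through FXR, stood at 37.3, 15.2 and 38.1 CPM in WT at ZT2 and 152, 193 and 125 CPM at ZT14, and on the mean rose by 2.33 (SE 0.27, 5.01-fold, edgeR adjusted p = 6.61e-05). Abcb11, the bile salt export pump, fell by 1.18 (SE 0.08, edgeR adjusted p = 2.14e-06), and Nr0b2, the SHP corepressor gene, fell by 0.92 (SE 0.21, edgeR adjusted p = 0.00796). Both are known targets induced by FXR.

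Of 10 LXR target genes, 2 rose and 1 fell, with Srebf1, the lipogenic regulator, higher by 1.58 (SE 0.15, edgeR adjusted p = 1.27e-05) and Lpl lower by 1.31 (SE 0.21, edgeR adjusted p = 0.000816). Of 8 thyroid hormone targets, 2 rose and 1 fell. Thrsp, a lipogenic gene, rose from 115, 102 and 43.4 CPM at ZT2 to 1417, 1843 and 1625 CPM at ZT14 in WT (4.23, SE 0.42, edgeR adjusted p = 8.48e-05). In TG it rose from 141, 71.2 and 197 CPM to 645, 1076 and 803 CPM (2.63, SE 0.39, edgeR adjusted p = 0.00117). The difference between these rises, -1.61 (SE 0.52), did not pass (edgeR adjusted p = 0.735). Of the 8 targets, 0 were called for that interaction, and 5 had an unadjusted edgeR p below 0.05, against 5.98% of genes. The 8 interaction values were 3 positive and 5 negative. The list was chosen with earlier results of these data known, and nothing is drawn from this share. Summed over the list, ZT14 libraries held 2381 to 2938 CPM in WT and 1439 to 2044 CPM in TG. Thrsp alone makes up a large part of these sums, so they are not a separate result for the other targets. Klf9, another such target, fell by 0.96 on the mean (SE 0.12, edgeR adjusted p = 9.53e-05). Of 5 retinoic acid targets 1 fell, the retinaldehyde reductase gene Dhrs3, by 0.94 (SE 0.08, edgeR adjusted p = 4.83e-06).

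Of 12 glucocorticoid targets, 5 rose and 1 fell over time while Nr3c1 did not pass. Fkbp5, a chaperone gene induced by the receptor, stood at 22.6, 21.2 and 19.5 CPM in WT at ZT2 and 73.8, 64.0 and 58.8 CPM at ZT14, and rose by 1.90 on the mean (SE 0.10, edgeR adjusted p = 2.06e-07). Per1, which is also a clock gene, rose by 2.98 (SE 0.42, edgeR adjusted p = 0.000369), and Tsc22d3 (GILZ) by 1.29 (SE 0.31, edgeR adjusted p = 0.00962). Of 10 HNF4A targets 4 rose, among them the glycogen synthase gene Gys2, by 1.27 (SE 0.11, edgeR adjusted p = 7.94e-06).

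Of 13 tested genes of ligand supply, 1 rose and 1 fell. Serpina6, which encodes the corticosteroid-binding globulin, rose by 0.93 (SE 0.19, edgeR adjusted p = 0.00369), and Serpina7, which encodes the thyroxine-binding globulin, fell by 0.94 (SE 0.26, edgeR adjusted p = 0.019). Of 24 other coregulators, 3 rose and 1 fell. Ncoa4, which encodes a coactivator also known as a ferritin receptor, rose by 0.45 (SE 0.06, edgeR adjusted p = 0.00038). These shares over time, on the mean of both genotypes, stand against 12% of all genes called higher and 10.4% called lower. Genotype called 0 genes in each of these target, supply and coregulator lists at either time. Of all genes it called 0.0722% at ZT2 and 0.0853% at ZT14, so 0 calls say little about these lists.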

How the data were processed

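The deposited tables give, for each of 12 libraries and 48440 genes, counts of total, uniquely mapped, exon and intron reads, and TPM made by the authors, per the file headers. Total gene reads equal exon plus intron reads in every row. Builds mm10 and GRCm38 are named in the submitters' processing notes, and the labels' protocols name the NEBNext Ultra RNA kit for the libraries. An aligner and the use of strand were not found in the labels or headers. Deposited counts of total gene reads were fitted with edgeR 4.0.16 in R 4.3.3: filterByExpr (minimum count 10, minimum total 15), TMM, and the quasi-likelihood test on 12 samples in 4 groups sharing the spread, with Benjamini-Hochberg adjustment over 15244 genes and calls at an adjusted p below 0.05. SE and 95% intervals come from the same fit. Deposited TPM values serve for levels only. Exon and intron reads were fitted in the same way. As a check of the code, the fit was also run on simulated counts with known changes, which enter no result.

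Alternatives changed the tool (DESeq2 1.42.0; limma-voom with limma 3.58.1), the scaling (RLE, or library size only), the filter, the read class, the samples fitted (6 rather than 12, or with libraries omitted), the call, and added a replicate block. Values in every library are given for members called in any contrast and those with the smallest p in each genotype contrast and the interaction. Of each other list, up to 3 genes with the smallest p per contrast could be named. Nr1h3, Thrb, Nr4a1, Nr4a2 and further members named by interval were described as members. The members, lists and tests were chosen with earlier results of these data known. A named result of the coregulator list is not reported here.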

Additional observations from a re-analysis of the deposited data

How the results depend on the processing

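The genotype comparisons and the interaction gave 0 called members under each alternative run. The fit to the 6 samples of a contrast was not run for the averaged contrasts and the interaction, which use all 12. For time in WT, in TG and on the mean (6, 6 and 11 members called), DESeq2 gave 7, 8 and 11, limma-voom 6, 6 and 11, and exon reads alone 7, 6 and 10. For time in WT, intron reads alone gave 0, an adjusted p below 0.01 gave 3, calls restricted to changes of 1 log2 unit or more gave 1, and fits without each library gave 3 to 6. For time in TG, omission of both libraries that stood apart gave 2, an adjusted p below 0.01 gave 2, calls restricted to changes of 1 log2 unit or more gave 0, and fits without each library gave 3 to 7. For the mean of both genotypes, intron reads gave 7, an adjusted p below 0.01 gave 7, calls restricted to changes of 1 log2 unit or more gave 1, and fits without each library gave 8 to 11.

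Of 49 member values examined, 6 turned direction, on exon or intron reads only. On exon reads Nr2f2 over time in WT was -0.12. On intron reads Nr2f6 was 0.17 in WT, 0.46 in TG and 0.32 on the mean, Rarg in TG was -0.091, and Hnf4a in TG against WT at ZT14 was -0.20. The cause was not tested. Same-numbered libraries of different groups showed no strong shared deviation (correlations of -0.25 to 0.15, 2 of 18 above 0.1). Of 12 libraries, 2 correlated best with their own number. With 3 libraries per group, these correlations cannot settle whether the numbers pair the samples. With a replicate block, 6 members were called in WT, 7 in TG, 12 on the mean and 0 for genotype and the interaction. Depth limits Vdr, Nr4a3, Hnf4g and Nr4a2, whose reads were few.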
